A study of Mus musculus with 48 samples.

Results

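Amygdala RNA from mice of the group titled FC was compared with amygdala RNA from the group titled CS, on all 12422 probe sets that are not array controls. The comparison used every amygdala array of both groups, 6 FC and 6 CS, which are 12 of the 48 arrays of the series and 12 of its 22 amygdala arrays. The labels do not spell out the abbreviations. Here FC is taken to mean fear conditioning, CS the conditioned stimulus alone and NH naive home cage. That reading rests on the series title, which sets associative beside nonassociative learning, and no label states it. Under that reading, the question was which amygdala transcripts differed between conditioned mice and mice that met the stimulus alone. Whether the mice learned is not shown by the values used here. Each array is labelled with a processing batch. Batch 2 held 3 CS and 4 FC arrays, and batch 3 held 3 CS and 2 FC arrays. The 10 NH amygdala arrays, 6 of them in batch 1, 3 in batch 2 and 1 in batch 3, served as a reference for the level of each gene. The labels name no strain, sex, age or genotype, and neither the training protocol nor the time from training to dissection. No label states which animals an array holds. Each of the 12 titles opens with its batch digit, and in 5 of them the remaining digits read as a pair of numbers that are both titles of hippocampus arrays of the same group, so each array may hold RNA of a pair of animals. If that reading is wrong, the spread behind the p-values may in part be technical.

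The amygdala is the forebrain structure in which the tone or context of fear conditioning is paired with the shock. Neurons that fire strongly switch on immediate early genes within minutes: calcium and cAMP signals activate kinases that phosphorylate CREB and serum response factor already bound at these promoters. Many of the products are transcription factors, among them the Fos and Jun proteins that dimerise as AP-1, the zinc finger Egr proteins and the orphan nuclear receptors of the Nr4a family. Others are phosphatases that end ERK signalling or proteins that act at the synapse. Novelty, handling and stress induce the same genes, which is why a stimulus-alone group is used beside a naive one.

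The 4 activity genes with the smallest p-values in this comparison were Junb, Fos, Nr4a1 and Fosb, and the 250 bases before the start of each are shown because the cAMP response element, the CREB binding motif TGACGTCA, lies in many promoters of this class. The sequences are from RefSeq (GRCm38.p6) and run 5′ to 3′ on the strand of the gene. Capitals mark the core of that element, TGACG on either strand (so also CGTCA). The windows are chr8:84978749-84978998 on the minus strand for Junb, chr7:19310046-19310295 on the minus strand for Fosb, chr12:85473640-85473889 on the plus strand for Fos and chr15:101266596-101266845 on the plus strand for Nr4a1.
Junb: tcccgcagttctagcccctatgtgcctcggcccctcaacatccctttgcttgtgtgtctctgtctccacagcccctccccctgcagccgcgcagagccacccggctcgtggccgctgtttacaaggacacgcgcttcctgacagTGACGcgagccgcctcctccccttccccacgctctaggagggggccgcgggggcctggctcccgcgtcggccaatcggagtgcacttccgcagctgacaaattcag
Fosb: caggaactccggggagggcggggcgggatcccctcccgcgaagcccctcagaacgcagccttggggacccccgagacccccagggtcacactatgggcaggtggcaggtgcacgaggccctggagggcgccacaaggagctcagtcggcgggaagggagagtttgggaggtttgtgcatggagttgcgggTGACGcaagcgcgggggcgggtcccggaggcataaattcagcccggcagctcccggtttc
Fos: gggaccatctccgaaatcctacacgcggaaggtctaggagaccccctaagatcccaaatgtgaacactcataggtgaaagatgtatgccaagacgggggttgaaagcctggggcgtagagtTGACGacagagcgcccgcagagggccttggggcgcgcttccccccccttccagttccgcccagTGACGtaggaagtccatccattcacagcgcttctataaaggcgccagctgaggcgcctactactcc
Nr4a1: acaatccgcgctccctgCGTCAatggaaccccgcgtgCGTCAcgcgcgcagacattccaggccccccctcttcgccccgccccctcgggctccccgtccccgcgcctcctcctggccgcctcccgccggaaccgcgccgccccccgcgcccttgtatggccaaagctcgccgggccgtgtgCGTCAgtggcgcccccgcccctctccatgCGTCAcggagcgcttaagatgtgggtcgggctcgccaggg
The core occurred 1 time before Junb, 1 time before Fosb, 2 times before Fos and 4 times before Nr4a1. Of 32851 promoter windows of this length in the table, 17.8% held the core and 1.55% held the full TGACGTCA. Among the activity genes measured on these arrays, 38 of 47 had a window, of which 19 held the core and 3 held the full element (Btg2, Dusp1 and Plk2). Motifs of serum response factor, AP-1 and the Egr proteins were also sought. They were found in 1, 1 and 7 of the 38 windows, against 1.47%, 4.46% and 2.57% of all windows. Such a match describes the letters and does not show a bound site.

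No probe set passed the threshold. At an adjusted p under 0.05 by limma with Benjamini-Hochberg adjustment over all 12422 probe sets, 0 were called (0%), and the smallest adjusted p was 0.99997. At an unadjusted p under 0.05, 163 probe sets passed (1.31%), 80 higher in FC (0.644%) and 83 lower (0.668%). If none differed, 621.1 would be expected to do so, and correlation between probe sets changes the spread of that count and not its mean. The observed count lay below it and depended on the settings, as given in the closing section. The cause was not tested. The differences were small as well as uncertain. All log2 differences, FC minus CS, lay between -0.38 (Wnk1, a kinase of ion transport, on the dimmest of its 3 probe sets) and 0.38 (Fos). The 95% interval of every one of the 12422 probe sets, each taken singly, lay inside a 2-fold difference in either direction, and that of 12410 (99.9%) lay inside a 1.5-fold difference. Only 13 probe sets differed by more than 0.25 on the log2 scale. Intensities on such arrays are compressed by background, so these bounds are on the measured scale, and in a piece of tissue fewer cells of a type and less RNA per cell cannot be told apart.

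**Figure D1:**
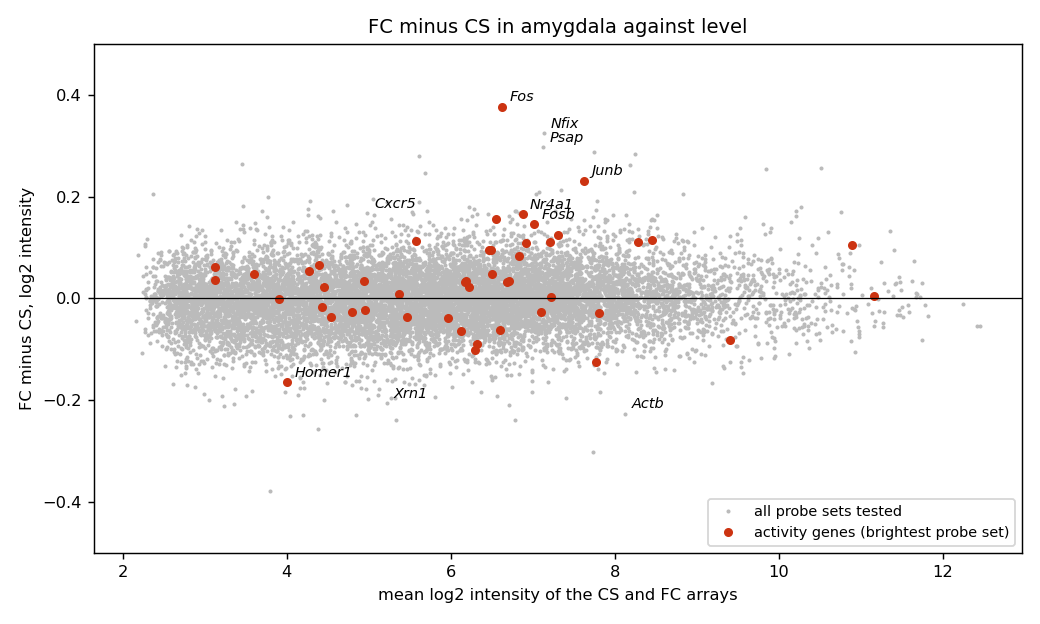
Log2 difference, FC minus CS, of each of the 12422 probe sets (vertical axis) against its mean log2 intensity over the 12 amygdala arrays (horizontal axis), with activity genes marked in colour. The cloud is centred near 0 and no probe set passed the adjusted threshold. Fos at 0.38 is the highest point.

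Although no gene passed, 3 of the 12 probe sets with the smallest p encoded subunits of AP-1. By p-value Junb ranked 1, Fos 3 and Fosb 12 of 12422, with the nuclear receptor Nr4a1 at rank 10. These 4 belong to the list of activity genes, which is described here with them included. Of 62 such genes, 47 had a probe set that names a single gene. Taking the brightest probe set of each, 31 of the 47 were higher in FC and 16 lower, with a median difference of 0.034, against 49.7% higher and a median of -0.00021 over all 8251 genes. At an unadjusted p under 0.05, 4 of 47, the genes already named, were higher (0.582% of all genes) and 1 was lower (0.412% of all genes). In 2 of the 47, Junb and Fosb, every FC array lay above every CS array of its batch, as in 0.097% of all genes.

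**Figure D2:**
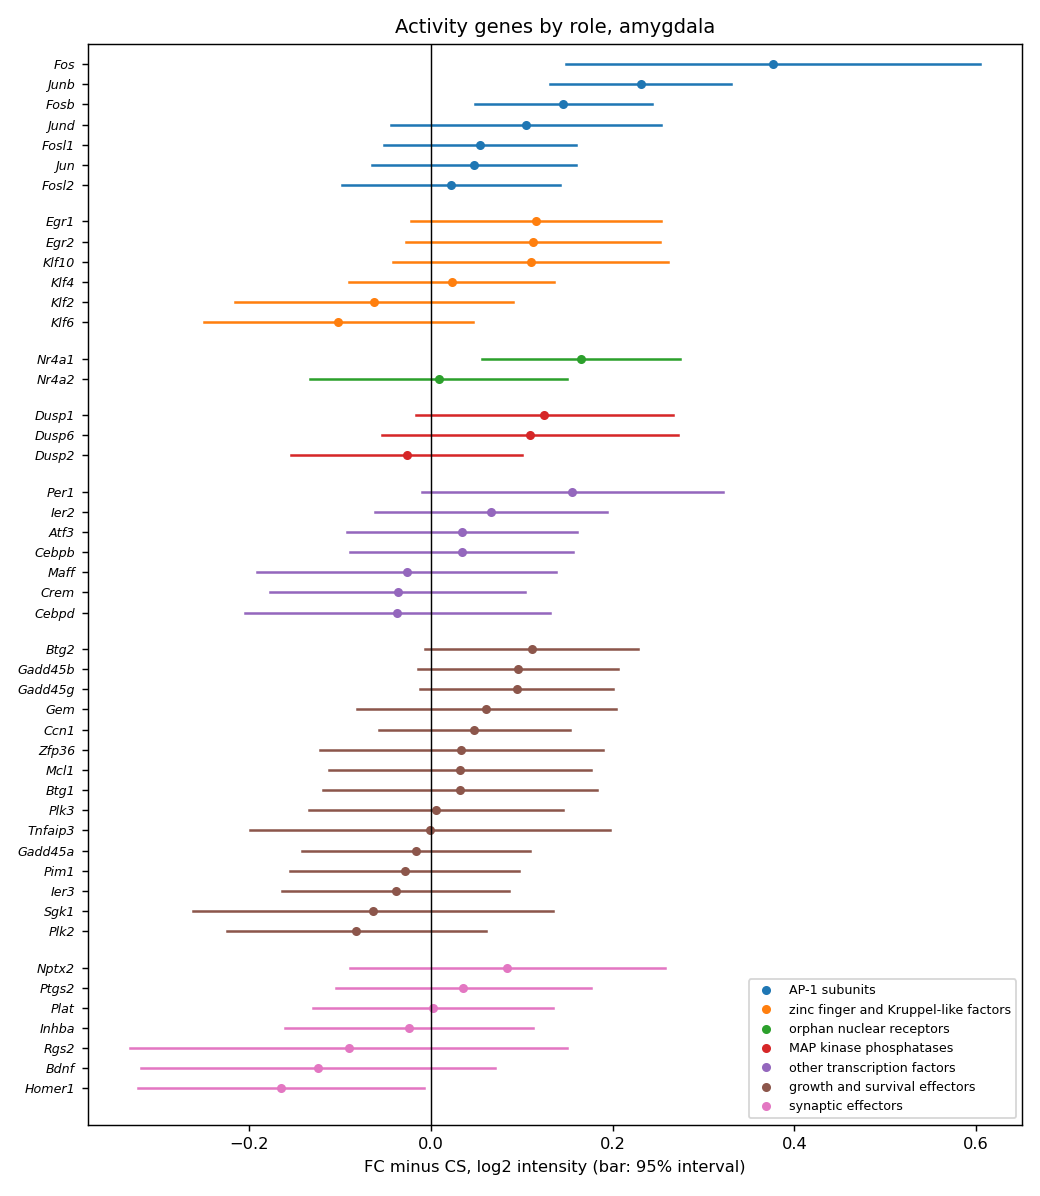
Log2 difference, FC minus CS, of the activity genes with its 95% confidence interval from limma (horizontal axis), grouped by role. Points to the right of 0 are higher in FC. All 7 AP-1 subunits and the 2 orphan nuclear receptors lie to the right, and the other roles hold genes on both sides.

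Junb encodes a Jun family partner in AP-1. In batch 2 its log2 intensity was 7.44, 7.51 and 7.55 on the CS arrays and 7.69, 7.73, 7.76 and 7.80 on the FC arrays. In batch 3 the CS arrays read 7.46, 7.54 and 7.57 and the FC arrays 7.71 and 7.76. All 6 FC arrays therefore lay above all 6 CS arrays, a separation found in 7 of 12422 probe sets (0.0564%), with 2 separated in the opposite direction (0.0161%). Junb has the smallest p in these same arrays, so the separation is not separate evidence. The difference was 0.23 ± 0.047 (SE), or 1.17-fold, with a 95% interval of 0.13 to 0.33 and an unadjusted p of 0.00015 (limma, adjusted p 0.99997). It was 0.25 within batch 2 and 0.21 within batch 3. The second Junb probe set differed by 0.16 in the same direction, with an unadjusted p of 0.024, but there the CS array 251101 at 7.65 lay among the FC arrays of its batch.

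Fosb encodes a Fos family subunit whose splice form ΔFosB is known to accumulate in stimulated neurons. Its CS arrays ranged from 6.91 to 7.00 with a median of 6.92, and its FC arrays from 7.04 to 7.15 with a median of 7.09. The groups did not overlap. The difference was 0.15 ± 0.046 (SE), with a 95% interval of 0.05 to 0.24 and an unadjusted p of 0.0057 (limma, adjusted p 0.99997), and it was 0.16 in batch 2 and 0.13 in batch 3. The NH arrays, from 6.86 to 7.12, spanned the CS arrays and reached into the range of the FC arrays.

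Fos, the most widely used marker of neuronal activation, had the largest positive difference of any probe set and also a wide spread. In batch 2 the CS arrays read 6.43, 6.52 and 7.05 and the FC arrays 6.65, 6.80, 7.02 and 7.04. In batch 3 the CS arrays read 6.11, 6.15 and 6.22 and the FC arrays 6.69 and 6.86. The groups were apart in batch 3, while in batch 2 the CS array 23139 lay above every FC array. The difference was 0.38 ± 0.11 (SE), or 1.30-fold, with a 95% interval of 0.15 to 0.60 and an unadjusted p of 0.0029 (limma, adjusted p 0.99997). It was 0.21 within batch 2 and 0.61 within batch 3, and the test of the interaction gave 0.40 ± 0.20 (SE) for batch 3 minus batch 2 (limma, adjusted p 0.884). Fos passed the threshold in batch 3 alone (adjusted p 0.0073). Leaving out the CS array 23139 gave a difference of 0.50 with an adjusted p of 0.127, and leaving out the FC array 21927 as well gave 0.55 with an adjusted p of 0.0029. A dim second Fos probe set differed by -0.08.

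**Figure D3:**
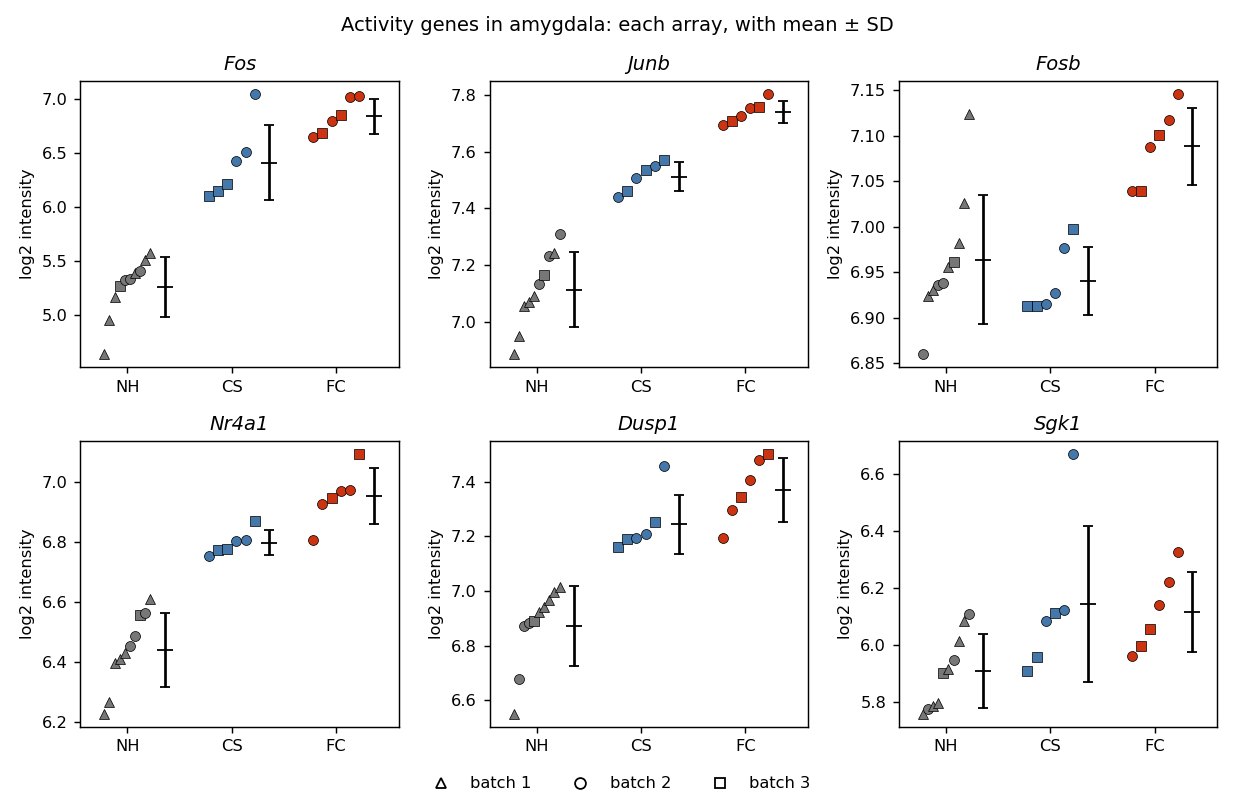
Log2 intensity (vertical axis) of activity genes on each amygdala array, by group (NH, CS, FC), with the batch of each array shown by its marker and the mean ± SD beside it. Points are sorted by value within a group. FC arrays of Junb and Fosb lie above all CS arrays, and 1 CS array of Fos, at 7.05, lies above every FC array.

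The remaining AP-1 subunits differed less. Jund, a constitutive partner, differed by 0.10, Jun by 0.05, Fosl1 by 0.05 and Fosl2 by 0.02, none with an unadjusted p under 0.05. With Junb, Fos and Fosb, all 7 measured subunits were higher in FC, with a median of 0.10. The sign of Fosl2 turned under several other settings, such as -0.05 in batch 3 alone. Those of Fos, Fosb, Jun, Junb and Jund turned under none of the settings run.

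Of the Nr4a receptors, which are induced without a ligand, 2 were measured. For Nr4a1 the CS arrays ranged from 6.75 to 6.87 with a median of 6.79, and the FC arrays from 6.81 to 7.10 with a median of 6.96. The FC array 21927 lay within the CS range and the others above it. The difference was 0.17 ± 0.052 (SE), with an unadjusted p of 0.0054 (limma, adjusted p 0.99997), and 0.13 and 0.21 in batches 2 and 3. Nr4a2, by contrast, differed by 0.0089 and took the opposite sign, -0.02, in batch 2 alone. Whether the 2 receptors differed from each other was not tested.

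Zinc finger factors were higher in 4 of 6 cases, with a median of 0.07 and none under an unadjusted p of 0.05. Egr1, which binds GC-rich promoters after ERK signalling, differed by 0.12 on its bright probe set, by 0.01 in batch 2 and 0.27 in batch 3. Its dim probe set differed by -0.17, and averaging the pair gave -0.03, so no direction is given for Egr1 in this comparison. Egr2 differed by 0.11 and the TGF-β inducible factor Klf10 by 0.11, while Klf6 differed by -0.10. The 95% interval of each of these differences included 0.

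The MAP kinase phosphatases Dusp1 and Dusp6, which dephosphorylate ERK and related kinases, differed by 0.12 and 0.11. For Dusp1 the FC arrays ranged from 7.19 to 7.50 with a median of 7.38 and the CS arrays from 7.16 to 7.46 with a median of 7.20. The groups overlapped, and the single high CS array was again 23139. Without it the Dusp1 difference was 0.18 (limma, adjusted p 0.9999).

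Among growth and survival genes, 9 of 15 were higher, with a median of 0.03. The antiproliferative Btg2 differed by 0.11, the DNA damage and stress proteins Gadd45b and Gadd45g by 0.10 and 0.09, and the Bcl2 relative Mcl1 by 0.03. The polo-like kinase Plk2, which acts in synaptic downscaling, differed by -0.08, and the glucocorticoid-induced kinase Sgk1 by -0.06. Sgk1 had its highest CS value, 6.67, on the array 23139, and its difference was 0.05 without that array. None of the 15 had an unadjusted p under 0.05.

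Genes whose products act at the synapse lay on both sides of 0. Of 7 measured, 3 were higher and 4 lower, with a median of -0.02. Homer1, whose short form uncouples glutamate receptors from the scaffold, differed by -0.16, with an unadjusted p of 0.042 (limma, adjusted p 0.99997), on a dim probe set. Its CS arrays ranged from 3.85 to 4.29 and its FC arrays from 3.80 to 4.08, which overlapped. The neurotrophin gene Bdnf differed by -0.12, the G protein regulator Rgs2 by -0.09 and the pentraxin Nptx2 by 0.08. In batch 3 alone the Homer1 difference was 0.02 and the Bdnf difference 0.0023.

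Of 7 other transcription regulators 4 were higher, with a median of 0.03. The clock gene Per1, also induced through CREB, differed by 0.16, with 0.24 in batch 2 and 0.04 in batch 3. Its CS arrays ranged from 6.23 to 6.70 and its FC arrays from 6.45 to 6.81, and the groups overlapped. The immediate early gene Ier2 differed by 0.07.

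The same genes were then read against the naive arrays. The differences of FC and of CS from NH share the NH arrays and are set side by side only. With batch as a block they rest on the 4 NH arrays of batches 2 and 3, since batch 1 held no other group. For Fos they were 1.53 and 1.15, both past the threshold (limma, adjusted p 7.6e-07 and 0.00033). For Junb they were 0.53 and 0.30, for Nr4a1 0.44 and 0.27, and for Fosb 0.16 and 0.02. Against NH, 8 probe sets passed in FC (0.0644% of 12422), those of Fos, Junb, Nr4a1, Dusp1, Ier2, Egr1, Gadd45g and Egr2, and all were higher. In CS 1 passed (0.00805%), that of Fos. A gene that passed against NH in FC and not in CS is not thereby shown to differ between them, and in the test of FC against CS none of the 8 passed.

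**Figure D4:**
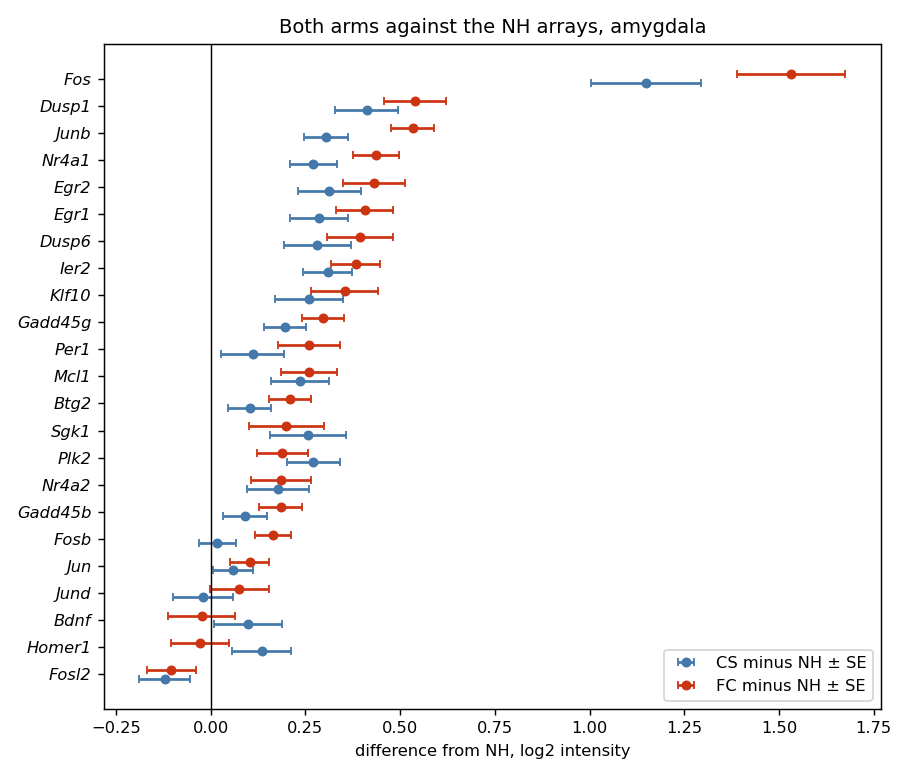
Log2 difference from the NH arrays, in FC and in CS, for activity genes, from the fit of all 22 amygdala arrays, with bars of 1 SE. Fos stands at 1.53 in FC and 1.15 in CS, and Fosb at 0.16 and 0.02. The differences share the NH arrays.

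The same contrast was read in the hippocampus for the leading genes. There FC minus CS was 0.05 for Junb, 0.11 for Fos, -0.02 for Fosb and 0.06 for Nr4a1. The test of the difference between tissues, over 28 arrays, called 0 of 12422 probe sets (0%), with 201 at an unadjusted p under 0.05 (1.62%) and a smallest adjusted p of 0.9999. Its unadjusted p was 0.027 for Junb, 0.012 for Fosb, 0.050 for Fos and 0.157 for Nr4a1, each with an adjusted p of 0.9999 by limma. No gene was therefore shown to differ between amygdala and hippocampus. This test takes the arrays as independent, although the shared title numbers may mark animals common to both tissues. With arrays that share such numbers as a random block it also called 0, with 182 at an unadjusted p under 0.05. The test between the batches called 0 as well, with 392 at an unadjusted p under 0.05 (3.16%) and a smallest adjusted p of 0.884.

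Other genes of amygdala signalling lay on both sides of 0. Of 12 glutamate receptor genes 6 were higher and 6 lower. The member with the smallest p was Grik5, a kainate receptor subunit, at 0.16 (unadjusted p 0.071). Among 13 GABA genes 5 were higher and 8 lower, and Slc6a13, a GABA transporter, had the smallest p at 0.07. Of 22 genes of cAMP, PKA and CREB signalling 14 were higher, led by Prkar2a, a regulatory subunit of PKA, at 0.11. Of 19 genes of CaM kinases, calcineurin, PKC and ERK 8 were higher and 11 lower, and Camk4, a nuclear kinase of CREB, stood at -0.12. None of the measured genes of these lists had an unadjusted p under 0.05.

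Of 25 neuropeptides and their receptors, 12 were higher and 13 lower. The lowest was the vasopressin gene Avp at -0.24 (unadjusted p 0.051), a transcript of hypothalamic and medial amygdala neurons. The somatostatin gene Sst differed by 0.09 and its receptor Sstr2 by 0.12. Of 17 glucocorticoid targets and receptors 5 were higher and 12 lower, with a median of -0.04, and none had an unadjusted p under 0.05. Of 17 chromatin enzymes 13 were higher, with a median of 0.03, among them the histone deacetylase Hdac5 at 0.10 and the methyltransferase Ehmt2 at 0.11. Of 15 clock genes 9 were higher, and of 15 synaptic vesicle genes 8 were.

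Apart from the cell type markers, genes outside the activity list with an unadjusted p under 0.05 stood in lists of actin regulation, of autophagy and RNA decay, and of the endoplasmic reticulum. Of 24 genes of actin regulation 16 were higher, yet both with such a p were lower (0.412% of all genes), Actb, cytoplasmic actin, at -0.23 and Arpc5l, a subunit of the Arp2/3 complex, at -0.13. The other Actb probe set differed by -0.08. Of 20 genes of autophagy and RNA decay, Trp53inp2, which recruits autophagy proteins, differed by 0.17 and Xrn1, the 5′ to 3′ exoribonuclease, by -0.21, the only members with such a p in either direction (0.582% of all genes higher, 0.412% lower). Of 21 endoplasmic reticulum genes, Stt3a, a catalytic subunit of oligosaccharyltransferase, differed by -0.17, and its other probe set by -0.07. It was the only member of its list with such a p. Of 18 cytosolic heat shock genes none had such a p, and the largest difference among those named was Dnajb1 at 0.20.

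Of the 24 probe sets with the smallest p in each direction, 12 higher and 12 lower, 4 were of activity genes. The others named genes of many functions. Higher in FC were Pias3, a SUMO ligase that inhibits STAT3, at 0.19 on a probe set that was not its brightest, the translocon subunit Ssr4, on a dim probe set, at 0.15, the potassium channel subunit Kcnj9 at 0.25 (0.08 in batch 2 and 0.48 in batch 3) and the myelin protein gene Mag at 0.16. Lower were Lyl1, a blood cell transcription factor, at -0.26, Cdc73, a subunit of the PAF1 complex, at -0.18, the aminopeptidase Enpep at -0.18 and Gtf3c2, a subunit of TFIIIC, at -0.20. All had an adjusted p of 0.99997 by limma. Of the 12 higher, 4 lay among the dimmest 40% of probe sets, and of the 12 lower, 8 did.

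Genes on several probe sets allowed a second reading of the same RNA. Of these 24, 13 had another probe set, and apart from Junb none of the others reached an unadjusted p under 0.05. Pias3 read -0.08 on its brightest probe set, and Enpep 0.03 on a bright one against -0.18 on a dim one. Lyl1 read -0.26 on one and 0.08 on the other, Atf2, a CREB relative, -0.20 and -0.01, and Mag 0.16 and 0.09. Kcnj9 read 0.25 on one and 0.11 on a brighter one. Of 2073 genes with more than 1 probe set, in 2 all reached that p in the same direction. They were Junb and Dffa, the inhibitor of the caspase-activated nuclease, at 0.12 on both.

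Probe sets were also ranked by the size of the difference among the brighter 60%. After Fos, the largest positive ones were Nfix, a nuclear factor I gene, at 0.32, the prosaposin gene Psap at 0.30, the sodium pump subunit Atp1b2 at 0.29 and the vesicle SNARE gene Vamp2 at 0.28. The lowest were Avp and Wnk1, both at -0.24, Actb at -0.23, and Ago2, an Argonaute gene, and Xrn1, both at -0.21, but the brightest probe set of Wnk1 read 0.04. Brighter probe sets likewise read 0.002 for Nfix, 0.04 and 0.03 for Psap and 0.03 for Vamp2, and a dimmer one read -0.01 for Atp1b2. By p-value Xrn1 ranked 8 and Actb 15. Leaving out 1 array at a time moved Nfix between 0.10 and 0.59, Vamp2 between 0.10 and 0.45, Psap between 0.17 and 0.44, Atp1b2 between 0.15 and 0.43 and Avp between -0.33 and -0.12. Over the same omissions Junb stayed between 0.21 and 0.24 and Fosb between 0.14 and 0.16. Junb and Fosb were among the smallest p-values and the others among the largest differences, so these ranges are not a like comparison.

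**Figure D5:**
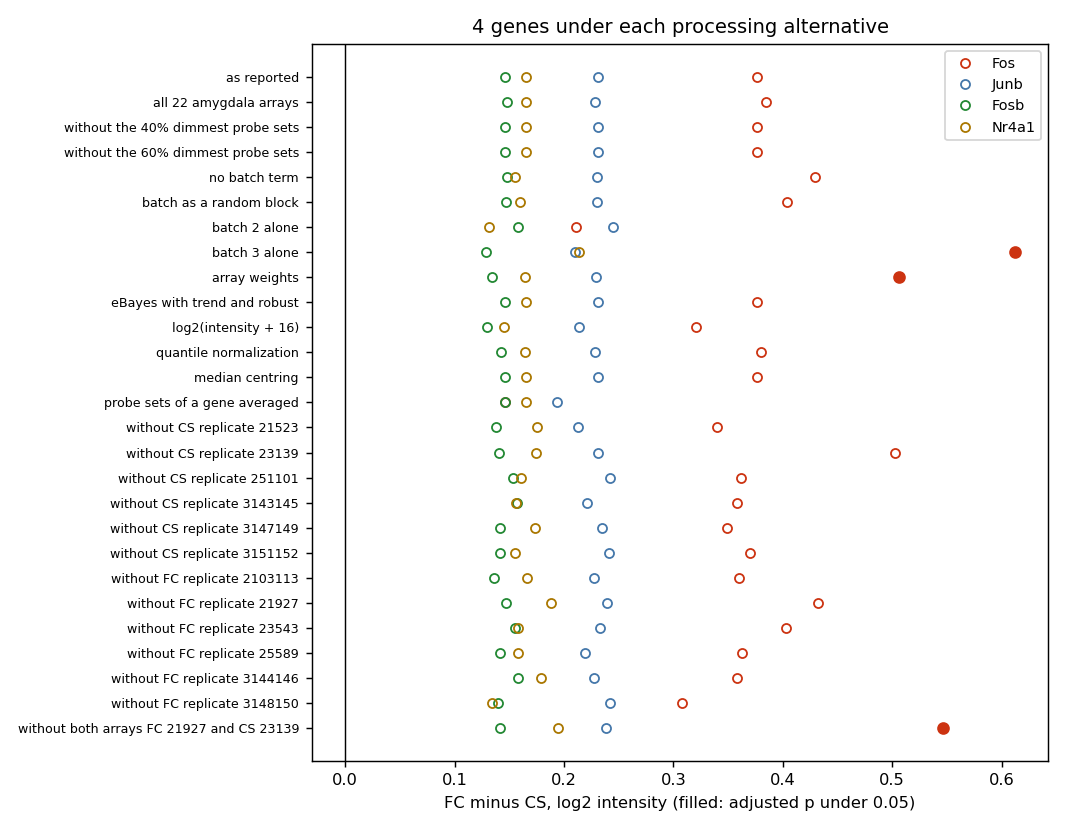
Log2 difference, FC minus CS, of Junb, Fos, Fosb and Nr4a1 (horizontal axis) under each alternative setting (vertical axis), filled where the adjusted p was under 0.05. Each gene stays above 0 in every setting shown. Fos ranges from 0.15 to 0.61 and Junb from 0.19 to 0.25.

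The tissue label and the quality of the arrays were checked once. Each marker was set against the same probe set in the hippocampus, as log2 intensity relative to the median of its array, with no test because batch and tissue cannot be told apart. Of 4 markers of the amygdala and neighbouring cortex, Cdh13 was 1.07 and Tac2 0.90 higher in amygdala with no overlap between tissues, Nr2f2 was 0.96 higher with overlap, and Rspo2 was lower (-0.81). Of 5 markers of hippocampal neurons, Dsp (-2.81), Neurod6 (-2.49) and Prox1 (-1.80) were lower in amygdala without overlap, and Calb1 (0.83) and Wfs1 (0.76) were higher. Summed marker intensities overlapped between the groups for all 11 marker lists. Those of oligodendrocytes ran from 1646 to 2024 in CS and from 1778 to 2105 in FC, and those of astrocytes from 2528 to 2920 and from 2600 to 3078. Of all markers on their brightest probe sets, only Aif1 of microglia had an unadjusted p under 0.05, at -0.12, on a dim probe set, while 6 of 8 microglial markers were higher. The differences between 3′ and 5′ control probe sets, a measure of RNA quality, overlapped between groups, and differed by -0.021 for Gapdh, -0.031 for Actb, 0.022 for Tfrc and -0.07 for Pcx.

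No 2 arrays held identical values, and correlations between the 12 arrays ran from 0.988 to 0.998. After group and batch were removed, 51.2% of the remaining variance lay on 1 component, with the FC array 21927 and the CS array 23139 at its opposite ends. The array 23139 was the highest of the 6 CS arrays for 19 of the 47 activity genes (40.4%) and for 28.1% of all genes. Its summed intensity of activity genes, 8658, was nevertheless below the CS median of 8779. The array 21927 was the lowest of the 6 FC arrays for 13 of the 47 (27.7%) and for 24% of all genes. Their part in each result was not tested beyond the values without them given above.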

How the data were processed

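RNA from mouse amygdala was measured on 1-colour oligonucleotide arrays. The authors deposited 1 table of linear intensity values per probe set, made with RMA per the submitters' processing notes, with its version and settings not given in the sources used here. Groups and batches were taken from the titles and descriptions, and 0 value columns were left unmapped. Values were converted to log2, and FC minus CS was fitted by two-sided lmFit and eBayes (limma 3.58.1 under R 4.3.3) on 12 arrays with batch as a fixed block. P-values were adjusted by Benjamini-Hochberg over 12422 probe sets after 66 controls were left out, with a threshold of 0.05. Differences from NH came from a fit of all 22 amygdala arrays. The difference between tissues used the 28 FC and CS arrays. A fit with arrays that share title numbers as a random block was added after seeing the data. The steps were tested on simulated data, drawn with independent noise for each probe set and array. Variation shared between probe sets, such as the component described above, was not simulated.

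Gene names came from the platform table: 10833 probe sets named 1 gene, 396 several and 1193 none, and only the first kind is named. Of the 10833, 10817 matched a RefSeq gene (GRCm38.p6). For lists, a gene was represented by its brightest probe set. Genes were named by rule: 24 activity genes, the 12 higher and 12 lower probe sets with the smallest p, up to 4 per list, genes whose probe sets all had an unadjusted p under 0.05 in 1 direction, and the 5 largest differences each way among the brighter 60% of probe sets. Fosl1, Klf6, Rgs2, Nptx2, Neurod6 and other markers compared between tissues lie outside it and were chosen after their values were seen. The comparison, the lists and the rule were chosen with earlier results of these data known. The number of arrays limits the precision.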

Additional observations from a re-analysis of the deposited data

Results flagged for a closer look

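In 10 of the 150 combinations of named probe set and group examined, 1 array lay far from the others of its group. Chance alone sets about 1 in 20 groups apart in this way. In the groups compared, the CS array 23139 was far above the other CS arrays for Dusp1 (log2 intensity 7.458) and Sgk1 (6.673), and the FC array 3148150 stood apart from the other FC arrays for Cdc73 (3.634). The other 7 were NH arrays, which the FC minus CS difference does not use. Array 17374 stood apart for Avp (7.404), Cxcr5 (4.728) and Enpep (4.035), array 299141 for Gadd45b (6.594), array 16768 for Plk2 (8.934), array 28892 for Gtf3c2 (4.925) and array 3142153 for Stt3a (5.316). Each group was examined over its batches together. Array 3142153 is the only NH array of batch 3, so array and batch cannot be told apart there.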

How the results depend on the processing

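The count of 0 probe sets called held under most alternatives, including each omission of 1 array (0 to 0). It was 1, Fos, in batch 3 alone, with array weights, and without both FC 21927 and CS 23139, an alternative chosen after seeing the data. The count at an unadjusted p under 0.05 by limma, 163 in the main fit, moved more. It was 1127 in batch 3 alone, 1039 with array weights and 895 without both arrays, each above the 621.1 expected if none differed. Over the omissions of 1 array it ran from 112 to 492, and without a batch term it was 108. The median of the activity genes lay between 0.024 and 0.041 over the omissions and was 0.089 with the dimmest 60% of probe sets left out, where 26 members remained. Of 50 single-gene results, 41 kept their direction under all settings run. The 50 were activity genes and probe sets picked for a small p or a large difference in these same arrays. A kept direction is therefore not independent evidence. In batch 3 alone the sign turned for Bdnf (0.0023), Fosl2 (-0.054), Homer1 (0.020), Plk2 (0.040), Sgk1 (0.033) and Wnk1 (0.017), and in batch 2 alone for Nr4a2 (-0.022) and Mcl1 (-0.029). It also turned for Fosl2 without a batch term (-0.011), with array weights (-0.020) and without both arrays (-0.035), for Sgk1 with array weights (0.037) and without both arrays (0.079), and for Egr1 with probe sets averaged (-0.030). Over the omissions of 1 array, Fosl2 ranged from -0.033 to 0.044, Sgk1 from -0.11 to 0.046, Nr4a2 from -0.034 to 0.043 and Mcl1 from -0.019 to 0.075. The cause was not tested. For the difference between tissues, the replicate block of shared title numbers, added after seeing the data, gave 0 probe sets called, as without it. No paired analysis was possible because no number occurs in both FC and CS.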

Other observations

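Over all probe sets, the FC arrays lay above all CS arrays within both batches in 14 of 12422 (0.113%), those of Junb and Fosb included. They lay below all CS arrays within both batches in 8 (0.0644%). Cxcr5, a chemokine receptor gene of B cells, and Ssr4, both read on dim probe sets, were among the 14. The naming rule holds them, as 2 of the 12 higher probe sets with the smallest p. They were picked for this section after their values were seen and had an adjusted p of 0.99997 by limma. For Cxcr5 the mean log2 intensity was 5.06 in FC, 4.89 in CS and 5.00 in NH. For Ssr4 it was 3.54 in FC, 3.38 in CS and 3.39 in NH. These means are not adjusted for batch, and 6 of the 10 NH arrays lay in batch 1, which held no other group. With batch as a block, FC minus NH was 0.06 for Cxcr5 and 0.04 for Ssr4. CS minus NH was -0.11 for Cxcr5 and -0.10 for Ssr4. Neither passed the threshold against NH.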
